A study of Rattus norvegicus with 12 samples.

Results

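Intronic circles of 330 to 419 bp are extrachromosomal circular DNA molecules, called eccDNA, that the deposited annotation places in introns and that lie within the main length class of the skin samples. They were chosen by 2 fields of the deposited list: the annotation type had to be intron, and the end minus the start had to be 330 to 419 bp. The rule found 48141 circles among 228353 listed eccDNA, which is 21.1% of the list. They made up 65.8% of the 73152 listed intronic circles and 31.8% of the 151499 circles of that length. Circular DNA was prepared from the back skin of wild-type SD rats, purified with removal of linear DNA, and sequenced as Circle-seq libraries made from 50 ng of circular DNA. The control group was untreated, a group called 5 Gy x2 received 2 weekly electron beam fractions of 5 Gy, and a group called 5 Gy x4 received 4 such fractions. Irradiated skin was taken on day 7 after the last fraction of each course, so the number of fractions and the time since the first fraction cannot be told apart. Each group had 4 libraries. The labels do not say whether these came from separate animals or when control skin was taken, so p-values measure no more than the variation among the 4 libraries of a group, and this may be technical. The libraries hold DNA of whole skin, which is a mix of cells, and fewer cells of a type and fewer circles per cell cannot be told apart. Circular DNA gives no expression level, so the labelled tissue could not be checked against marker genes.

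Small circular DNA is found in healthy and damaged tissue alike, and is usually thought to arise when short chromosomal fragments are ligated end to end. In nuclei the DNA is wrapped around nucleosomes, and the sizes of small circles often follow the length of DNA on a nucleosome pair with its linker, with a finer ripple close to the pitch of the DNA helix. Introns make up much of the transcribed genome and hold none of the coding sequence of the transcript they are spliced from. Of the listed circles of this length, 48141 were intronic and 7596 exonic.

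The number of listed eccDNA per library ranged from 3601 to 46163, and the number of supporting reads from 35525 to 404815. A supporting read is a split read or a discordant pair that spans the junction of a circle, and a circle was counted as present where a library had at least 1 such read. The 48141 members were present 49579 times over the 12 libraries and had 322043 supporting reads in all. Control replicate 4 had the fewest members, 195, against 524, 1059 and 1436 in the other control libraries, and several comparisons are also given without it.

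The number of members per library is described here without a test, since the members were chosen in these same libraries. The control libraries had 524, 1059, 1436 and 195 members, with a mean of 804 ± 552 (SD, n = 4). The 5 Gy x2 libraries had 3893, 6378, 5952 and 1202 members, with a mean of 4356 ± 2366 (SD, n = 4). The 5 Gy x4 libraries had 4662, 10072, 10068 and 4138 members, with a mean of 7235 ± 3281 (SD, n = 4). The means of the 2-fraction and 4-fraction groups were 5.42 and 9.0 times that of the control. The 5 Gy x2 range overlapped the control range through its replicate 4 alone, and every 5 Gy x4 library lay above every control library. Members took up 10.3% ± 3.53 (SD, n = 4) of the listed circles of a control library, 20.8% ± 1.42 of a 5 Gy x2 library and 21.5% ± 0.854 of a 5 Gy x4 library. Their share of the supporting reads was 5.18% ± 1.37 in control, 14.7% ± 2.6 after 2 fractions and 17% ± 1.59 after 4 fractions. The libraries also differed in their number of supporting reads, so the members are given against that number as well. Supporting reads come from the circles themselves, so this scale does not correct for sequencing depth. Per 1000 supporting reads of the whole library, the control libraries had 14.8, 8.86, 7.29 and 1.77 members, the 5 Gy x2 libraries 9.62, 64.8, 21.1 and 23.0, and the 5 Gy x4 libraries 24.9, 31.1, 55.4 and 12.9. On that scale the control and 5 Gy x2 ranges overlapped, as did the control and 5 Gy x4 ranges.

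The length class made up a larger part of intronic circles in irradiated skin. It held 32.1%, 33.5%, 42.3% and 15.4% of the intronic circles of the control libraries. It held 66.1%, 68.6%, 67.9% and 58.4% in the 5 Gy x2 libraries and 64.8%, 70.5%, 67.3% and 64.6% in the 5 Gy x4 libraries, and neither range overlapped that of the control. By contrast, the intronic share within the length class was nearly level: 32.4% ± 1.17 (SD, n = 4) in control, 31.4% ± 0.945 after 2 fractions and 32.0% ± 0.334 after 4 fractions. The members thus moved with the whole length class, of which they were close to the same part in every library, from 30.1% to 33.7%.

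**Figure D1:**
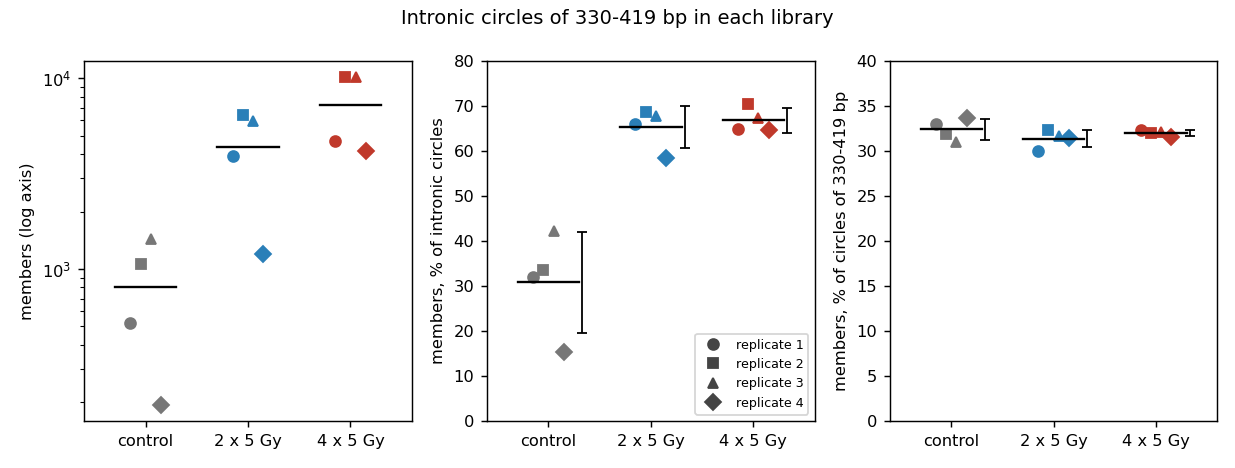
Number of intronic circles of 330 to 419 bp per library (log axis), their percentage of all intronic circles and their percentage of all circles of that length, for 4 libraries per group. Lines are means and bars are SD over the libraries; the share of intronic circles is 15.4% to 42.3% in control and 58.4% to 70.5% in irradiated libraries, while the share of the length class stays between 30.1% and 33.7%.

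Within the class the lengths were not spread evenly but rose and fell in steps. Over all libraries the most common length was 358 bp, with 1260 of the 49579 calls, and in the profile smoothed over 3 bp further maxima lay at 336, 348, 370, 380 and 390 bp. The counts repeated best at a spacing of 11 bp, where the autocorrelation of the profile after removal of its running mean over 11 bp was 0.91. The spacing with the highest autocorrelation was 11 bp in the control, 5 Gy x2 and 5 Gy x4 libraries taken separately, at 0.63, 0.88 and 0.89. The most common length was 358 bp in each of these 3 groups. The middle of the distribution was narrow: the median member was 367 bp long, and the quartiles were 353 and 381 bp. Median lengths per library lay between 365 and 369 bp, and the group means were 367 ± 1.5 bp in control, 368 ± 0.957 bp after 2 fractions and 367 ± 1.26 bp after 4 fractions (SD, n = 4).

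**Figure D2:**
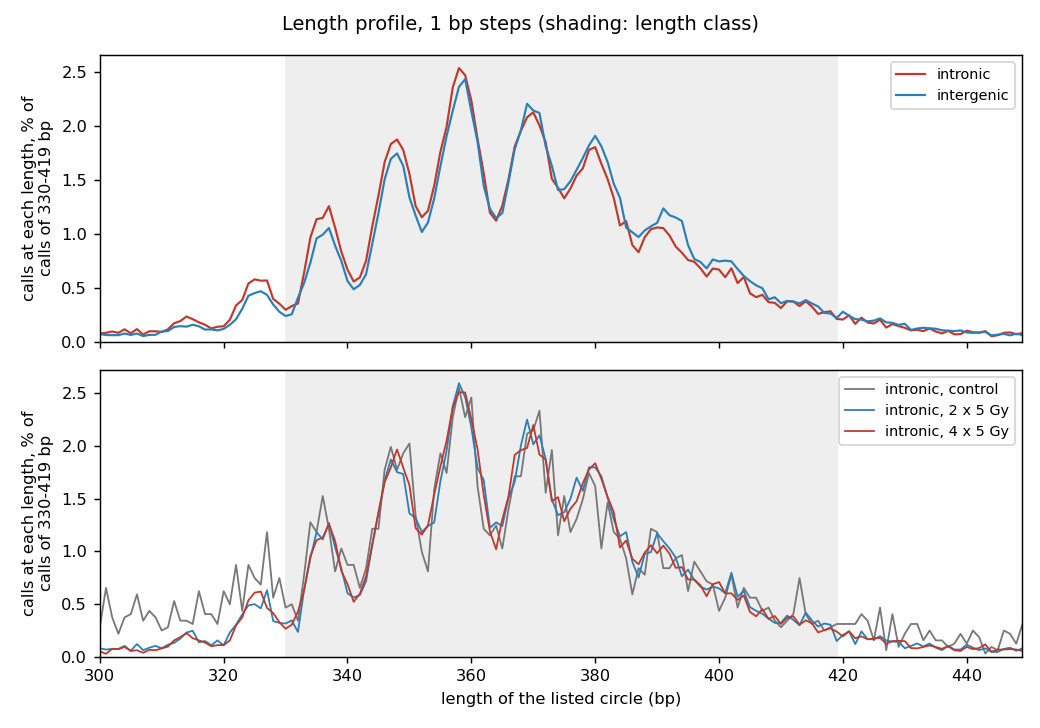
Calls at each length in 1 bp steps, as a percentage of the calls of 330 to 419 bp, for intronic and intergenic circles over all libraries (top) and for intronic circles in each group (bottom). Maxima recur about every 11 bp with the highest at 358 bp for intronic circles, and the intronic curve lies above the intergenic one at the short end and below it near 390 bp.

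Just inside and outside the limits of the class the counts fell off on both sides. There were 3983 intronic calls of 330 to 339 bp and 2021 of 320 to 329 bp, and at the other limit 1547 calls of 410 to 419 bp and 908 of 420 to 429 bp. Set against intergenic circles, the intronic ones were weighted to the short side. The bin of 330 to 339 bp held 8.03% of the intronic and 6.83% of the intergenic calls of the class, whereas the bin of 390 to 399 bp held 8.28% and 9.64%.

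Circles of the same length from intergenic DNA, 90919 in number, were the closest comparison, and each library held both kinds. Intronic circles had a lower median length than intergenic ones in 12 of 12 libraries. The mean over the libraries was 367.25 bp for intronic and 369.75 bp for intergenic circles. The difference was -2.5 bp ± 1.38 (SD, n = 12), between -6 bp in control replicate 4 and -1 bp in control replicate 1 and 5 Gy x2 replicate 4. The difference is given without a test, since length chose the circles and the limits of the class cut both distributions. It was small beside the spread within the class and ran from -3.75 to -1.54 bp under the alternatives tried.

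Intronic circles also carried the label hconf more often. The deposited list gives each circle one of the labels hconf, conf and lconf, which it does not define, and 18.6% of the members were hconf, 12.3% conf and 69.1% lconf. The share of hconf circles averaged 21% for intronic and 19.6% for intergenic circles. The difference was 1.35 percentage points ± 1.01 (SD, n = 12) and was above 0 in 12 of 12 libraries, from 0.198 in 5 Gy x4 replicate 3 to 3.99 in control replicate 4. An exact two-sided sign-flip test over the libraries gave p = 0.000488, the smallest it can give, and an adjusted p of 0.0013 over 8 comparisons (Benjamini-Hochberg). Among circles with at least 5 supporting reads it was -0.03 points (exact sign-flip test, adjusted p = 0.978). With intergenic circles weighted to the members' mix of lengths in 10 bp bins it was 1.11 points (adjusted p = 0.0013 by the same exact test).

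The depth of coverage over the circle gave a further difference, in a family of 8 comparisons added after the values had been seen. Among circles found in a single library, the mean log2 depth was 2.23 for intronic and 2.14 for intergenic circles. The difference of 0.09 ± 0.05 (SD, n = 12) was above 0 in 12 of 12 libraries (exact sign-flip test, adjusted p = 0.00195). It was between 0.11 and 0.19 in the control libraries and between 0.05 and 0.08 in the irradiated ones; whether these ranges differ was not tested. With at least 2 supporting reads required, the difference fell to 0.05 and missed the threshold (exact sign-flip test, adjusted p = 0.159). The difference in supporting reads missed the threshold: the mean log2 number of reads was 2.16 for intronic and 2.13 for intergenic circles, higher in 9 of 12 libraries, with an adjusted p of 0.0645 by the exact test. The share of circles found in several libraries was 10.8% for intronic and 10.3% for intergenic circles, a difference of 0.447 points ± 0.930 (SD, n = 12; exact sign-flip test, adjusted p = 0.137). With the value of control replicate 4, -1.45 points, left out, the difference was 0.619 points, with an adjusted p of 0.00195 by the same exact test over 11 libraries. Circles shared with that library alone still counted as shared in the others. A shared circle counts in every library that holds it, so the differences for this measure are not independent, which the test does not allow for.

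**Figure D3:**
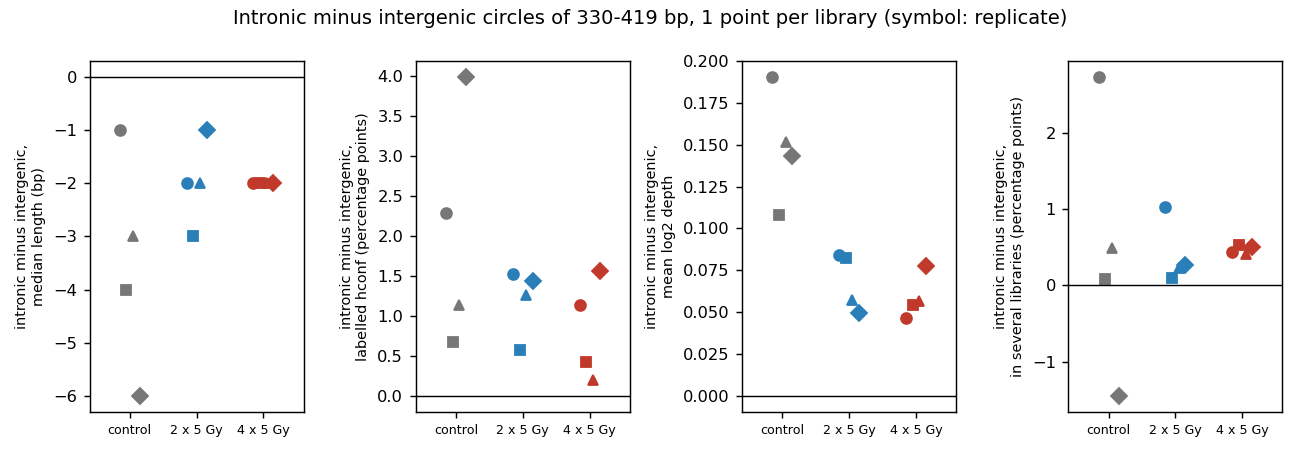
Intronic minus intergenic circles of 330 to 419 bp in each of the 12 libraries, for the median length, the percentage labelled hconf, the mean log2 depth and the percentage found in several libraries. Each symbol is a library and its shape gives the replicate; all 12 lie below 0 for length and above 0 for hconf and depth, and 11 lie above 0 for presence in several libraries.

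The 7596 exonic circles of the same length were fewer, down to 17 in control replicate 4. A circle in an intron was found in several libraries more often than an exonic one in 12 of 12 libraries, 10.8% against 7.22% on average. These 12 values are not independent, since a shared circle counts in every library that holds it, and the test does not allow for this. The difference was 3.56 points ± 5.18 (SD, n = 12; exact sign-flip test, adjusted p = 0.0013), with the highest value of 17.3 points in control replicate 4. With that value left out the difference was 2.31 points (exact sign-flip test over 11 libraries, adjusted p = 0.00195), while circles shared with that library still counted as shared. Intronic circles had a higher share of hconf by 4.83 points ± 8.70 (SD, n = 12; 10 of 12 libraries; exact sign-flip test, adjusted p = 0.0375), and the difference within control replicate 4 was 28.7 points. Without that library the difference was 2.65 points and the adjusted p of the same exact test was 0.0534. The median length was 2.46 bp ± 3.30 above that of exonic circles (SD, n = 12; higher in 8 and lower in 1 of 12 libraries), and 1.77 bp without control replicate 4, again given without a test. The call for hconf was lost with other single libraries left out as well. In the added family the mean log2 depth differed from that of exonic circles by -0.026 ± 0.168 (SD, n = 12). It was lower in 10 of 12 libraries (exact sign-flip test, adjusted p = 0.899). Control replicate 4 had the highest difference in depth, 0.466. Without that library the difference was -0.0703 (exact sign-flip test over 11 libraries, adjusted p = 0.0078).

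Within the members, 5 measures were compared between the groups of libraries, and none passed an adjusted p of 0.05. These exact two-sided permutation tests of 4 against 4 libraries cannot give a p under 0.0286, and 15 comparisons were adjusted together. The share of hconf was 25.6%, 23.1%, 19.5% and 40.5% in the control libraries. It was 16.3%, 21.1%, 16.9% and 14.8% after 2 fractions and 18.2%, 19.5%, 21.4% and 14.9% after 4 fractions, so that most control values lay above the irradiated ones and the groups overlapped. Against control the difference was -9.90 points after 2 and -8.68 points after 4 fractions (exact permutation test, p = 0.0571 and adjusted p = 0.306 for both). Without control replicate 4 these were -5.45 and -4.24 points (exact permutation test, adjusted p = 0.306 for both), and among circles found in a single library -4.49 and -2.85 points. The mean log2 number of supporting reads per member was 2.28 ± 0.92 in control, 2.14 ± 0.93 after 2 fractions and 2.06 ± 0.74 after 4 fractions (SD, n = 4; exact permutation test, adjusted p at or above 0.964).

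The stretch of the host genes, their surroundings and their number did not pass the test either. The stretch covered by all listed exonic and intronic circles of a gene was used as the size of the gene, since no annotation of the build was used here. The median over members was 91.3, 97.9, 108 and 90.0 kb in the control libraries, 112, 105, 106 and 113 kb after 2 fractions and 106, 105, 103 and 105 kb after 4 fractions. The control mean was 96.7 ± 8.06 kb, below the 109 ± 4.15 kb and 105 ± 1.01 kb of the irradiated groups (SD, n = 4), and control replicate 3 lay within their range (exact permutation test, adjusted p = 0.306 for both). With hconf circles alone the differences from control were 2.63 and 3.61 kb in place of 12.2 and 8.06 kb. The surroundings of the members, as the mean number of genes with a listed circle in the same 10 Mb window, were 61.9 ± 3.66 in control, 59.5 ± 1.04 after 2 fractions and 59.5 ± 0.385 after 4 fractions (exact permutation test, adjusted p = 0.482 and 0.306 against control). Control replicate 4, at 67.3, lay above the other libraries, and without it the differences from control were -0.628 and -0.598 in place of -2.42 and -2.39 (exact permutation test, adjusted p = 0.701 and 0.476). A draw of 100 members from a library would hold 98.5, 98.3 and 98.5 different genes on average in the 3 groups, so members were scattered over genes in every group.

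Almost all members were seen once. Of the 48141 members 46901, or 97.4%, were present in a single library, 1126 in 2 libraries and 18 in 5 or more. The intergenic circles had 97.7% in a single library. Only 4.10% of the members overlapped another member, against 4.16% of intergenic and 3.11% of exonic circles with a circle of their own kind. The share of a library's members that other libraries also held was 16.2%, 13.4%, 11.5% and 46.7% in control. It was 6.58%, 4.17%, 4.94% and 7.24% after 2 fractions and 4.74%, 4.35%, 3.98% and 5.61% after 4 fractions, and both irradiated groups lay wholly below the control. The differences of -16.2 and -17.3 points had p = 0.0286, the smallest the exact permutation test can give, and adjusted p = 0.129 over 9 comparisons added after the values had been seen. With the value of control replicate 4 left out they were -7.98 and -9.04 points (exact permutation test, adjusted p = 0.129). Circles shared with that library alone still counted as shared in the others. Since a shared circle counts in every library that holds it, the values of the libraries are not independent, which the test does not allow for. The control libraries held 3601 to 10389 listed circles and the irradiated ones 6326 to 46163, and the part of that in the difference was not tested.

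Members in several libraries were merged from calls that often differed in length. Every call of the single-library members was itself 330 to 419 bp long. Of the 2680 calls behind members of several libraries only 63.7% were, and of the 107 calls behind the 18 members of 5 or more libraries 36.4%. The share was 54.9% in control, 61.9% after 2 fractions and 68.2% after 4 fractions. For 76 members no library had a call of that length. By the length of each library's own call there were 49571 intronic calls of 330 to 419 bp, and the differences in the share of shared members were -16.4 and -17.3 points (exact permutation test, adjusted p = 0.129). Circles in many libraries were mostly labelled hconf, 88.9% of those in 5 or more libraries against 18.2% of those in a single library.

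The circle present in most libraries lay in an intron of Btbd9, a gene of a BTB domain protein, at chr20:8989233-8989605 of rn6. It had 20, 0, 62 and 100 supporting reads in the control libraries, 45, 12, 0 and 29 after 2 fractions and 11, 21, 61 and 56 after 4 fractions. The merged entry was thus present in 10 of 12 libraries, with overlapping levels in the groups. Of its 417 reads 416 were discordant pairs and 1 was a split read, and its calls were 255 to 372 bp long. Only 2 of the 10 calls were within the class. The starts of the 10 calls lay within 19 bp and their ends within 116 bp of each other. A circle in Nedd9, which encodes a scaffold protein of focal adhesions, at chr17:23046826-23047183 was held in 6 libraries. Its 6 calls were all within the class, 336 to 358 bp, and their starts lay within 2 bp and their ends within 22 bp of each other. It had 0, 19, 65 and 0 reads in control, 67, 0, 20 and 19 after 2 fractions and 0, 164, 0 and 0 after 4 fractions. Split reads made up 207 of its 354 supporting reads. These values show presence without a trend by group.

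Other circles held in 6 or 7 libraries lay in genes of unlike function. Their coordinates are those of merged entries, and the calls behind an entry differed in length. Calls were 290 to 368 bp long for Clnk, 282 to 355 bp for Glmn and 252 to 353 bp for Zfp189. The circle in Clnk, an adaptor of immune cell signalling, at chr14:76794853-76795222 was present in 7 libraries with 29 reads in all. It had 5, 3, 3 and 1 reads in the control libraries, 0, 6, 7 and 0 after 2 fractions and 0, 4, 0 and 0 after 4 fractions. The circle in Glmn, whose product glomulin takes part in vascular smooth muscle development, at chr14:3210689-3211102 had 259 reads in 6 libraries. It had 74, 0, 0 and 0 reads in control, 40, 0, 24 and 20 after 2 fractions and 26, 75, 0 and 0 after 4 fractions. The circle in Zfp189, a zinc finger protein, at chr5:64793744-64794118 had 246 reads, of which 110 came from 5 Gy x2 replicate 1. Circles in Tsga10ip, Nell2, which encodes a secreted protein with EGF-like domains, Shtn1, which encodes the neuronal polarity protein shootin, and Ksr2, a scaffold of the Ras pathway, were each present in 6 libraries with 83 to 179 reads. Another one lay in a gene that the list gives as ENSRNOG00000052570, with 99 reads in 7 libraries. The fifth highest number of reads belonged to a circle in Nbl1, a secreted antagonist of bone morphogenetic proteins, at chr5:157526859-157527214. All of its 208 reads came from control replicate 3.

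Only 3 members were present in every library of a group, and they are named here after their values were seen. They were the circles in Clnk for the control, Btbd9 for the 5 Gy x4 group, and a merged entry of 413 bp in AABR07066379.1 at chr9:8381505-8381917 for the control. The latter had 12, 24, 125 and 17 reads in the control libraries and 0 in all 8 irradiated ones. Of its reads 172 came from discordant pairs and 6 from split reads. Its calls were 296 to 401 bp long, 3 of 4 of them within the class, and none had the length of the merged entry. In a test of the reads of all listed eccDNA with edgeR's quasi-likelihood test the comparison of 5 Gy x2 with control had an adjusted p of 0.317 and that of 5 Gy x4 with control one of 0.247.

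**Figure D4:**
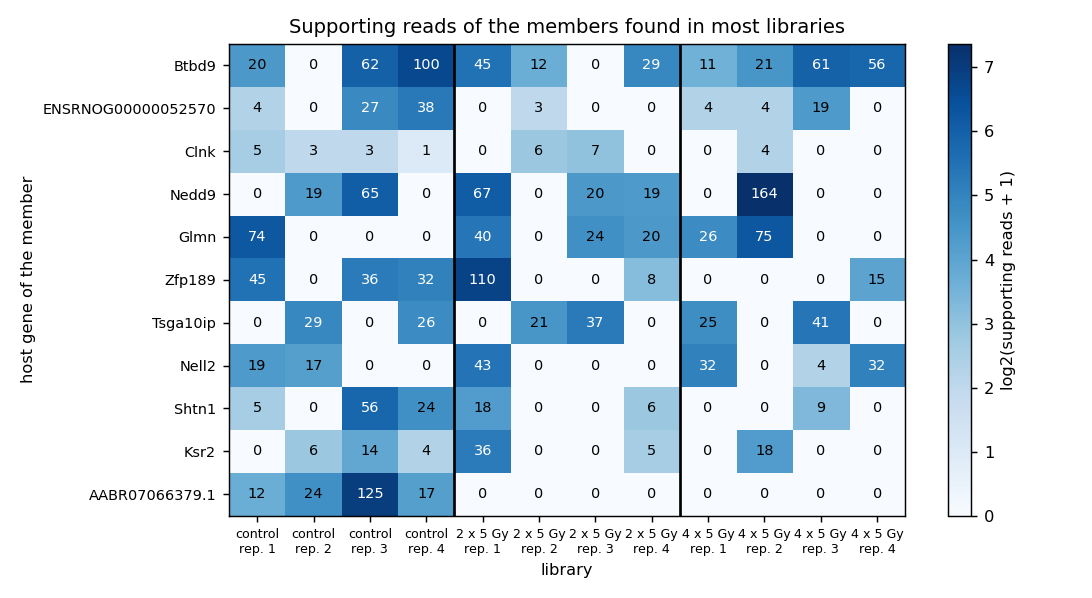
Supporting reads in each of the 12 libraries for the 10 members found in most libraries and for the circle in AABR07066379.1, with rows named by host gene and shading as log2(reads + 1). Reads are scattered over the groups for the first 10, with Btbd9 present in 10 libraries, and the last row has reads in the 4 control libraries alone.

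That test covered the circles with enough reads for a comparison of single entries. Of 733 listed eccDNA that passed the filter on low counts 21 were members, and 0 of these 21 passed an adjusted p of 0.05 by edgeR in any of the 3 comparisons between groups. Over all entries tested the percentage called was 0% for 5 Gy x2 against control, 0.136% for 5 Gy x4 against control and 0.136% for 5 Gy x4 against 5 Gy x2. At an unadjusted p under 0.05 by edgeR there were 3, 6 and 5 of the 21 members, against 61, 85 and 93 of all 733 entries. DESeq2 called 0 of the members as well, with 2, 4 and 2 at an unadjusted p under 0.05.

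Members lay in 10968 genes, most of them with few. A single member was assigned to 3818 genes, 2 to 9 members to 5959, 10 to 49 to 1160 and 50 or more to 31. The 10 genes with most members held 2.20% of all assignments and the 100 with most 10.3%. By the assignment of the list, the gene with most members was Mycbp2, which encodes a large E3 ubiquitin ligase of the nervous system, with 343. Its listed circles cover chr15:87507985-93807934 of rn6, or 6.30 Mb, and the next widest gene, Dmd, covers 2.10 Mb. Within that stretch lie all listed circles of 11 other genes. No annotation of the build was used, so whether the whole stretch belongs to Mycbp2 could not be checked. Mycbp2 had 7, 3, 11 and 0 members in the control libraries, 33, 44, 40 and 14 after 2 fractions and 44, 72, 57 and 26 after 4 fractions. Per Mb it had 54.4 members and ranked 1052 of the 1191 genes with 10 or more members. A short gene reaches 10 members only with many per Mb, so the rank depends on that limit.

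The genes with the next highest numbers covered 895 kb to 1932 kb each. Nrxn3, a presynaptic adhesion molecule, had 114 members, Pard3b, a cell polarity protein, had 89, and Pde4d, a cAMP phosphodiesterase, had 82. An unnamed gene, ENSRNOG00000006617, had 81. Luzp2, a leucine zipper protein, had 78, Cdh13, a cadherin anchored in the membrane by a lipid, had 76, Lrrc4c, a ligand of netrin-G1, had 75, and Gpc6, a glypican, had 72. Nrxn3 had 2, 1, 1 and 0 members in control, 7, 17, 18 and 2 after 2 fractions and 9, 21, 32 and 6 after 4 fractions. The number of members followed the length of the gene closely. Over the 1191 genes with 10 or more members Spearman's rho between members and covered stretch was 0.79, given as a description, since genes share libraries and the stretch is itself measured from listed circles. The median gene had 76.6 members per Mb, and the quartiles were 62.9 and 95.2. The limit of 10 members keeps out short genes with few per Mb, so these values and the high end depend on it. At the ends, named after their values were seen, Il1rapl2, an interleukin-1 receptor family gene on chromosome X, had 20.7 per Mb and Pisd, a mitochondrial phospholipid enzyme, had 336. ENSRNOG00000054834 had the highest value, 555 per Mb from 19 members within 34.2 kb.

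**Figure D5:**
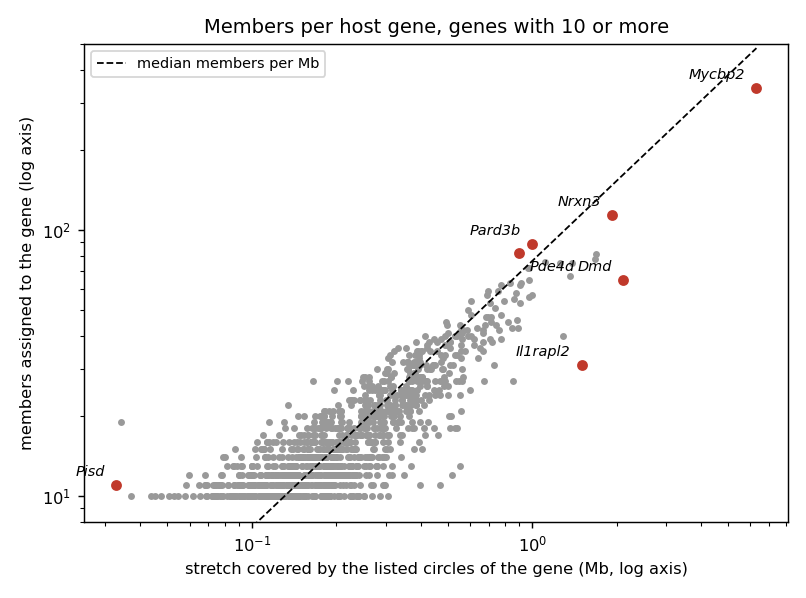
Members assigned to each of the 1191 genes with 10 or more, against the stretch that the gene's listed circles cover, both on log axes, with the median of 76.6 members per Mb as a dashed line. Most genes lie along the line; Mycbp2 has most members, 343, over the widest stretch of 6.30 Mb, and Dmd and Il1rapl2 on chromosome X lie below the line.

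By gene list, members were found in nearly every gene that had any listed circle. Long neuronal genes had a member in 16 of the 16 listed, with a median of 37 members over a median stretch of 597 kb; over all 14890 genes with a listed exonic or intronic circle 73.7% had a member, the median was 1 and the median stretch 11.3 kb. Their share of a library's members was 0.881% ± 0.258 in control, 1.5% ± 0.177 after 2 fractions and 1.44% ± 0.163 after 4 fractions (SD, n = 4). The highest control library, at 1.11%, lay below the lowest irradiated one, at 1.25%; the genes of the list were chosen with results known, and no test was made of the share. Extracellular matrix genes had a member in 15 of 17, led by Lama2, a laminin chain of basement membranes, with 48, and by Ltbp1, which binds latent TGF-beta, with 18. Epidermis and hair follicle genes had a member in 16 of 17, with 9 each in the stem cell receptors Lgr5 and Lgr6 and 8 in Edar, the receptor of hair placode formation. DNA damage and repair genes had a member in 16 of 18, with 16 in the mismatch repair gene Msh3, 12 in Prkdc, the catalytic subunit of DNA-PK, and 10 in the Fanconi anaemia gene Fancc. Skeletal muscle genes had a member in 12 of 12, led by Dmd, which encodes dystrophin, with 65 and Trdn, which encodes triadin, with 17. The shares of the matrix, epidermal, repair and muscle lists overlapped between control and irradiated libraries.

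No host gene passed the test between groups. The 84 genes with at least 5 members in 4 libraries were tested with edgeR's quasi-likelihood test with the number of members per library as the library size, and 0 passed an adjusted p of 0.05 in each comparison, so that 0% were called. Control counts rarely reached 5, so genes entered mainly through their irradiated libraries. Comparisons with control thus rest on genes filtered by the irradiated groups and on low control counts. At an unadjusted p under 0.05 there were 3 genes for 5 Gy x2 against control, 3 for 5 Gy x4 against control and 2 for 5 Gy x4 against 5 Gy x2. DESeq2 called 0 as well, with 11, 19 and 2 at an unadjusted p under 0.05. Of the fixed lists, 8 long neuronal genes, 1 matrix gene and 1 muscle gene were among the 84, and 0 passed in either direction. The gene with the lowest p, named after its values were seen, was Hdac9, a histone deacetylase. It had 0 members in all 4 control libraries, 6, 10, 9 and 2 after 2 fractions and 1, 8, 5 and 2 after 4 fractions. The log2 fold change of 5 Gy x4 over 5 Gy x2 was -1.44 ± 0.43 (SE; edgeR, adjusted p = 0.0789). Against control it has no finite fold, and the adjusted p of 5 Gy x2 was 0.234 by edgeR.

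Along the chromosomes no window passed the test between groups. Of 292 windows of 10 Mb 291 held a member, with a median of 170 and a highest count of 350 on chromosome 9 from 60000001 to 70000000. Of the 223 windows with enough members 0 passed an adjusted p of 0.05 by edgeR in each of the 3 comparisons, so that 0% were called, against 0 of 281 windows for intergenic circles. At an unadjusted p under 0.05 there were 16, 13 and 6 windows for 5 Gy x2 against control, 5 Gy x4 against control and 5 Gy x4 against 5 Gy x2. For intergenic circles these numbers were 31, 25 and 10 of 281 windows. For the members DESeq2 called 0, 4 and 0, the 4 being lower after 4 fractions. The lowest p was that of chr6:130000001-140000000, singled out after its value was seen, with 5, 7, 10 and 2 members in control, 2, 23, 21 and 3 after 2 fractions and 12, 33, 26 and 7 after 4 fractions. Relative to all members its log2 fold change after 4 fractions was -1.41 ± 0.39 (SE; edgeR, adjusted p = 0.0742). Leaving out single libraries brought up to 3 windows past the threshold for 5 Gy x4 against control: 3 without 5 Gy x4 replicate 3, and 1 each without 5 Gy x4 replicates 1 and 2 and 5 Gy x2 replicates 1 and 3.

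Autosomes carried 14.6 members per Mb on chromosome 16 to 22.5 on chromosome 10, and chromosome X 5.94. Of the circles of this length in introns or intergenic DNA, 48.6% were intronic on chromosome 12 and 25% on chromosome X. The share of members per chromosome differed in 0 of 22 chromosomes at an adjusted p of 0.05 by exact permutation tests in each comparison. Only chromosome Y after 4 fractions reached an unadjusted p under 0.05. It held 11 members in all and none in the control libraries (exact permutation test, p = 0.0286, the smallest possible, adjusted p = 0.559).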

How the data were processed

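The authors deposited a list of eccDNA with coordinates, annotation and labels, and 12 tables of supporting read counts per listed circle. Per the submitters' processing notes, BWA, Picard, bedtools and the build rn6 were used, without versions. For the circle caller, and for the rule that merges calls of several libraries, nothing is given in these sources. The deposited mean coverage was used as depth, and 16 further columns of per-sample values were not used. Members and lists were chosen with earlier results of these data known. Groups were compared by exact two-sided permutation tests, kinds of circle within a library by exact sign-flip tests over 12 libraries, with Benjamini-Hochberg adjustment (Python 3.11.15, scipy 1.17.1). Counts of members per window and gene, and reads per circle, were tested with edgeR 4.0.16 (R 4.3.3; filterByExpr and TMM), with DESeq2 1.42.0 as an alternative. The edgeR test gives no SE. The SE beside its fold changes is the size of the log2 fold change divided by the square root of the F statistic, an approximation. For genes filterByExpr left 2, so TMM could not be fitted, and genes with at least 5 members in 4 libraries were used with library size alone. Genes named were the 10 with most members, up to 3 of each list with most members, those past a threshold, the 10 members in most libraries and the 5 with most reads; 1 gene that this rule names is not reported here, and Il1rapl2, Pisd, ENSRNOG00000054834, Hdac9 and AABR07066379.1 were named after their values were seen. Names were in the list for 14191 of 17225 gene identifiers, and 0 of the others could be named. The tests were run on simulated data first. Counting error alone limits low counts: reads are not independent molecules. The alternatives tried were read minimums, label, length limits, each library left out, a replicate block, normalization and tool, and, added after the data were seen, each call's own length and a common mix of lengths. No pairing by replicate number was seen: same-numbered libraries of different groups had correlations of their deviations over windows between -0.108 and 0.117. Control libraries held few members per window, so these low correlations cannot show that the libraries were unpaired.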

Additional observations from a re-analysis of the deposited data

Results flagged for a closer look

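Among 39 sets of 4 control or irradiated libraries, 2 held a library far from the other 3, both times control replicate 4; chance gives about 1 in 20. The share of its members that other libraries also held was 46.7%, with the next highest control library at 16.2%. The share of its single-library members with discordant pairs was 14.4%, with the next highest control library at 6.98%, and 8.72% in 5 Gy x2 replicate 1. This library had the fewest members, 195.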

How the results depend on the processing

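Of 901 recomputed values 772 kept their direction and their side of the threshold, or lay within the replicate spread. With hconf circles alone the mean number of members was 184.5, 791 and 1396 in control, 5 Gy x2 and 5 Gy x4, and the share 2.57%, 3.63% and 3.99%; with at least 5 reads the 5 Gy x4 mean was 2923 and the shares after 2 and 4 fractions 18.9% and 19.2%; at 340 to under 400 bp they were 17.5% and 18.0%. The differences that turned sign were all short of the threshold before and after, except hconf against intergenic circles (-0.0306 points with at least 5 reads). Between 5 Gy x4 and 5 Gy x2, gene density differed by -0.0205 (at least 2 reads), -0.27 (at least 5) and -1.54 (hconf), the log2 reads by 0.0326 (at least 5), the host stretch by 0.980 kb (hconf) and the discordant share by -0.679 points (hconf). Genes in a draw against control turned to 0.196 and 0.208 (at least 5 reads), 0.200 (340 to under 400 bp, 4 fractions), 0.293 and 0.443 (circles of 1 library).

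Against intergenic circles the log2 reads turned to -0.0044, -0.0211 and -0.0332 (at least 2 reads, at least 5, hconf) and passed the threshold at 0.0388 for circles of 1 library and at 0.0408 by own call length; presence in several libraries turned to -0.147 points (at least 5) and -0.0434 (hconf) and passed at 0.655 with a common mix of lengths; the discordant share turned to -0.105 points (at least 5). Against exonic circles the difference in median length was 1.96, 2.38, 2.04, 1.83 and 1.62 bp (at least 2 reads, at least 5, hconf, 340 to under 400 bp, 1 library), and hconf lost its call at 6.11 (at least 5) and 2.61 points (1 library); log2 reads passed at -0.0458 (340 to under 400 bp) and -0.11 (1 library); log2 depth turned to 0.0080 (at least 5) and the share with 1 read to -0.145 points (own call length). Windows past the threshold for 5 Gy x4 against control numbered 1 with library size alone, 4 by DESeq2 and 1 at 340 to under 400 bp. The cause was not tested.

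Leaving out each library gave these ranges. Against exonic circles hconf ran from 2.65 to 5.42 points and lost its call without any 1 of the 4 control libraries or 5 Gy x2 replicates 2 and 4; median length ran from 1.77 to 2.86 bp; log2 reads ran from -0.0679 to -0.0283, past the threshold without control replicate 1; the discordant share from -1.58 to 0.359 and the share with 1 read from -0.258 to 0.990 points. Log2 depth against exonic circles ran from -0.0703 to -0.00704, past the threshold without control replicate 4. Against intergenic circles log2 reads ran from 0.0193 to 0.0343 and presence in several libraries from 0.239 to 0.619 points, both past the threshold without control replicate 4. Presence in several libraries was still counted over all libraries, the one left out included. Log2 reads ran from -0.50 to 0.24 (5 Gy x2 minus control), -0.57 to 0.16 (5 Gy x4 minus control) and -0.45 to 0.28 (5 Gy x4 minus 5 Gy x2). For the latter pair gene density ran from -0.41 to 0.439, log2 depth from -0.44 to 0.21 and the discordant share from -0.490 to 1.10; genes in a draw of 5 Gy x4 minus control ran from -0.208 to 0.124. Windows ran from 0 to 3 for 5 Gy x4 against control, and host genes from 0 to 1 for 5 Gy x4 against 5 Gy x2, with 1 without 5 Gy x2 replicate 1 or 5 Gy x4 replicate 2.

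With the replicate number as a block 0 windows, 0 host genes and 0 members passed in each comparison, and the hconf difference of 5 Gy x2 minus control stayed at -9.90 points (exact sign-flip test within numbers, adjusted p = 0.536); the numbers share no source that the labels name, and 1 of 12 libraries correlated best with its own number. The hconf setting left too few windows and genes for a fit, and filterByExpr too few genes, so these gave no value. Control libraries with 195 to 1436 members limit every comparison with control, and a member seen in 1 library says little about its absence elsewhere.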
